A study of Homo sapiens with 18 samples.

Results

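The comparison described here set wild-type HOXB13 against an empty vector in LNCaP cells that received no androgen. Its members were chosen by sample title: the 3 vehicle libraries labelled WT and the 3 vehicle libraries labelled EV, which are 6 of the 18 libraries of the series. LNCaP is an established human prostate cancer cell line that depends on the androgen receptor. The hairpin shHOXB13, an RNA directed against HOXB13, was present in the cells of all 18 libraries, and an inducible vector supplied wild-type HOXB13 (WT), HOXB13 with 3 phosphorylated residues changed to alanine (3A), or nothing (EV). Every group was first kept for 48 h in RPMI whose serum (2%) had been stripped of steroids with charcoal. The 6 libraries compared here then had 24 h of ethanol (0.1% final), and the R1881 libraries had 10 nM of this synthetic androgen for the same time. Cells free of the hairpin were not analysed here. The labels do not say whether a rescue line was a pool or a clone, nor whether replicates were separate cultures. A difference between the lines that arose apart from HOXB13 cannot be told apart from the rescue, and the p-values reflect the spread among replicate libraries, some or all of which may be technical.

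HOXB13 is a posterior homeobox transcription factor that marks the prostate epithelium from development into adult life. It binds AT-rich DNA, alone or with the TALE homeobox proteins of the MEIS family, and it shares many enhancers with the androgen receptor, where it can raise or lower transcription. In steroid-poor medium the receptor has little ligand to drive its targets, among them the kallikrein genes.

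HOXB13 itself (chromosome 17, minus strand, chr17:48724763-48729178, hg38) was read first, since the labels are defined by it. Its level was 538, 497 and 564 CPM (read counts divided by scaled library size) in EV libraries 1 to 3 and 529, 589 and 489.5 CPM in WT libraries 1 to 3. The groups overlapped, and the log2 fold change was 0.01 (95% interval -0.22 to 0.24, edgeR adjusted p = 0.999). The labelled rescue was thus not visible in the RNA of this gene. Gene counts cannot separate hairpin-targeted RNA from rescue RNA, so neither the knockdown nor the rescue could be checked, and WT and EV below mean the libraries labelled so. Total counts ran from 22812641 to 28407161 in the 6 libraries, and mitochondrial genes took 3.55% to 5.70% of them, with overlapping groups. Libraries of 1 group differed by more than counting noise (chi-square per degree of freedom 9.96 to 50.4). The first principal component of the 6 libraries (30.7% of the variance) did not separate the groups, with WT library 1 at one end and WT library 3 and EV library 3 at the other. The second (25.1%) had the EV libraries on one side and the WT libraries on the other. All 12 markers of LNCaP luminal cells were expressed, with a summed level of 5921 to 6243 CPM in EV and 5459 to 5726 CPM in WT. The basal markers KRT5 and TP63, the stromal markers DCN and DES and the blood markers CD3E and HBB had 0 counts in all 6 libraries. Summed basal markers ran from 9.36 to 12.5 CPM in EV and from 12.85 to 20.04 CPM in WT, nearly all of it DST, a cytoskeletal linker. Stromal markers summed to 19.9 to 23.5 CPM in EV and 20.5 to 23.9 CPM in WT, led by COL1A1, and 9 of 10 blood and endothelial markers were under 1 CPM in every library.

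By edgeR's quasi-likelihood test, 111 of 17162 genes tested were higher in WT (0.647%) and 21 were lower (0.122%) at a Benjamini-Hochberg adjusted p under 0.05. The higher genes were led by the cAMP-binding membrane protein BVES, the diamine oxidase AOC1, the checkpoint ligand CD274 and the olfactory-type receptor OR51E2, and the lower genes by the kinase inhibitor CAMK2N1. The 111 included 104 protein-coding genes, and 50 of the 111 changed by more than 1 on the log2 scale, as did 6 of the 21 lower genes. The median change over all genes tested was 0.01. In each of the 132 called genes the 3 WT libraries lay wholly on one side of the 3 EV libraries. Over all genes tested, WT lay wholly above EV in 6.3% and wholly below in 4.48%. Transcription factors were 4 of the 111 higher genes (3.6%) and 0 of the 21 lower genes, against 6.57% of all genes tested. The counts depended on single libraries: 63 higher and 3 lower genes were called without WT library 2, 61 and 8 without EV library 3, and 75 and 8 without EV library 2. A fit over these 6 libraries alone called 59 higher and 5 lower genes and kept 61 of the 132 calls. When each library was left out in turn, 50 of the 111 higher genes and 3 of the 21 lower genes kept their call every time. The called genes given below with a test kept their call in this way unless the libraries whose removal ended it are named, with the log2 fold change without each. Among the genes that held in this way, the fit over 6 libraries ended the calls of SLC30A4 (edgeR adjusted p = 0.0555), NIPAL3 (0.0568), RDH10 (0.0588), RLN1 (0.0613) and AL138974.1 (0.171). Among the others given below it ended those of KLK3, KLK4, TOB1, TJP1, PIK3CD, BANK1, ZYX, STMN4, ACSL4, HBEGF, RLN2, TNFSF15, GLP1R, GSTA1, DIO3, ADA2, TFPI, GALNT7, HS3ST1, PDIA5, GLYATL1, INTS8 and IER5L.

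The largest change among called genes with a mean of at least 1 CPM lay in the Popeye locus on chromosome 6. BVES (minus strand, chr6:105096822-105137174) encodes a membrane protein of muscle and epithelium with a cAMP-binding Popeye domain. Its level was 3.45, 2.25 and 1.48 CPM in EV libraries 1 to 3 and 76.2, 117 and 79.8 CPM in WT libraries 1 to 3 (log2 fold change 5.27 ± 0.28, edgeR adjusted p = 2.05e-10). It was low in every EV library and a moderately expressed gene in every WT library, with 0.408 ± 0.169 FPKM in EV and 15.5 ± 3.94 in WT per length. PREP (minus strand, chr6:105277565-105403084), a cytosolic peptidase that cuts after proline, was already expressed in EV at 57.2, 53.1 and 53.7 CPM and read 152, 204 and 159 CPM in WT (log2 fold change 1.65 ± 0.11, edgeR adjusted p = 3.88e-09). Between them lies POPDC3 (minus strand, chr6:105158280-105179995), a second Popeye gene, at 0.379, 0.613 and 0.387 CPM in EV and 1.66, 3.51 and 2.04 CPM in WT (log2 fold change 2.37 ± 0.44, edgeR adjusted p = 0.00762). All 3 WT libraries were higher than all 3 EV libraries for each of these genes. The POPDC3 call was lost without WT library 2 (1.99) and EV library 3 (2.25).

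No other tested gene whose body reaches within 1 Mb of BVES was called. HACE1, a ubiquitin ligase gene on the far side of BVES, changed by 0.07 ± 0.13 (95% interval -0.19 to 0.33, edgeR adjusted p = 0.999), and ATG5, which acts in autophagosome formation, by 0.11 ± 0.10 (95% interval -0.11 to 0.33, edgeR adjusted p = 0.969). PRDM1, a transcriptional repressor gene, was under 0.5 CPM in all 6 libraries and its value of 1.53 ± 1.13 was not called (edgeR adjusted p = 0.920). Of the other 15 measured genes in the list of Popeye and cAMP pathway genes none was called by edgeR, the list being chosen with these 3 genes known. At an unadjusted p under 0.05, PDE8A, a cAMP phosphodiesterase gene, stood at -0.25 ± 0.12 (edgeR adjusted p = 0.651). The list's median of 0.08 was close to the 0.01 of all genes.

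Genes known from neurons were 11 of the 132 called genes, 10 higher and 1 lower. This and the groups by function below were formed after the values were seen and hold 93 of the 132 genes, so their counts are descriptions. Since 111 of all 132 calls were higher, a group with nearly all its calls higher does not differ from the rest in that. CBLN2, a secreted cerebellin that bridges neurexins and postsynaptic receptors, was at 21.7, 20.04 and 17.98 CPM in EV and 80.8, 88.9 and 59.4 CPM in WT (log2 fold change 1.94 ± 0.12, edgeR adjusted p = 3.88e-09). GRIK1, a kainate-type glutamate receptor subunit, read 3.71, 2.01 and 2.32 CPM in EV and 9.11, 15.7 and 9.78 CPM in WT (log2 fold change 2.11 ± 0.34, edgeR adjusted p = 0.00190). Its paralogue GRIK2 was at 13.7, 14.1 and 13.2 CPM and 30.3, 25.1 and 23.4 CPM (log2 fold change 0.94 ± 0.14, edgeR adjusted p = 0.000925). In these 3 genes the lowest WT library was well above the highest EV library, and the WT libraries differed among themselves by more CPM than the EV libraries did. Relative to its level GRIK1 varied about equally in both groups (0.625 ± 0.209 FPKM in EV and 2.69 ± 0.865 in WT). CBLN2, GRIK1 and GRIK2 were the 3 members called of 17 measured genes for glutamate receptors and synaptic organisers, a list that had been drawn up with them in view, whose median was 0.10.

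BCHE, the butyrylcholinesterase gene, is known for hydrolysing choline esters and rose from 47.5, 60.1 and 39.02 CPM to 101, 95.7 and 85.2 CPM (log2 fold change 0.94 ± 0.16, edgeR adjusted p = 0.00335). KALRN, a guanine exchange factor of dendritic spines, rose from 5.48, 5.01 and 4.399 CPM to 13.1, 13.4 and 12.9 CPM (log2 fold change 1.41 ± 0.17, edgeR adjusted p = 8.37e-05). Its value is uncertain, since 10.4% of its exon bases overlap another gene and the strand setting is not given. DCDC2, a doublecortin-family protein that binds microtubules, had the largest fold change of any called gene. Over each group it had 1 count in EV and 84 in WT, a ratio of 93.3 after scaling (95% counting interval 16.3 to 3730), and it was outside the naming rule because its mean was under 1 CPM. That interval pools the libraries of a group and leaves out the spread between them, so it is too narrow. The DCDC2 value is also uncertain because 11.9% of its exon bases overlap another gene. SYT4, a synaptotagmin of secretory vesicles, moved the other way, from 27.6, 24.8 and 22.7 CPM to 7.78, 11.2 and 14.3 CPM (log2 fold change -1.17 ± 0.23, edgeR adjusted p = 0.0101), and its call was lost without WT library 1 (-0.98), WT library 2 (-1.19) and EV library 1 (-1.100). Among 10 measured neuroendocrine and secretory vesicle genes it was the only edgeR call (DESeq2 called 1 higher and 1 lower), and the list's median was 0.02.

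**Figure D1:**
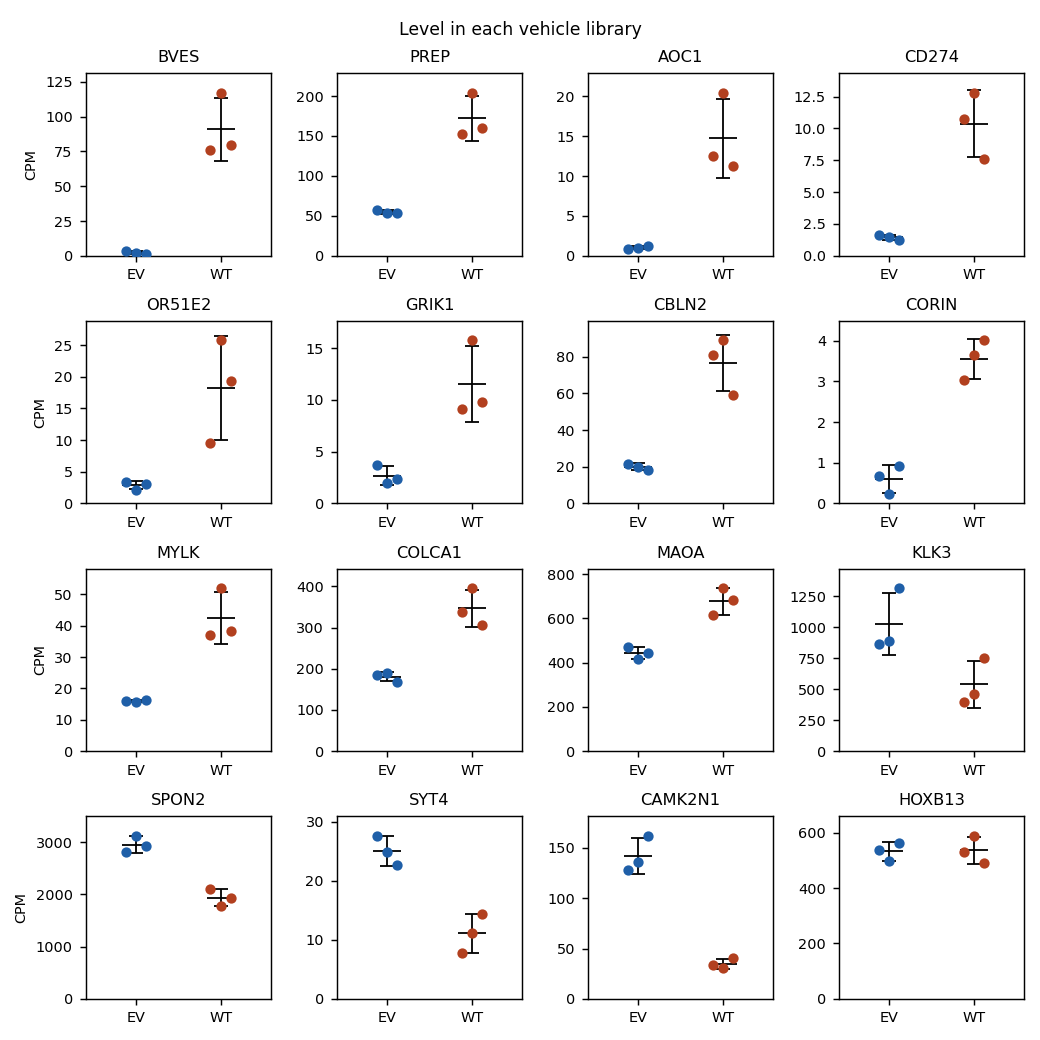
Points are the CPM of each EV (blue) and WT (red) vehicle library on a linear axis from 0, and bars are the group mean with its SD (n = 3). The groups are apart in every panel except HOXB13, where they overlap.

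CD274 and 5 signalling genes best known from lymphocytes were among the genes called higher in WT, and 4 of these 6 kept their call without any 1 library. CD274 (plus strand, chr9:5450503-5470566) encodes PD-L1, the ligand of the inhibitory T cell receptor PD-1. Its level was 1.601, 1.47 and 1.27 CPM in EV and 10.7, 12.8 and 7.62 CPM in WT (log2 fold change 2.84 ± 0.22, edgeR adjusted p = 7.90e-08), so that the lowest WT library exceeded the highest EV library severalfold. VAV3, an exchange factor for small GTPases, read 1.01, 1.84 and 1.76 CPM and 7.57, 4.06 and 4.99 CPM (log2 fold change 1.84 ± 0.29, edgeR adjusted p = 0.00175). PIK3AP1, the adaptor that brings PI3-kinase to B cell receptors, read 5.35, 5.08 and 5.42 CPM and 10.9, 14.3 and 9.82 CPM (log2 fold change 1.14 ± 0.18, edgeR adjusted p = 0.00147). The SRC-family kinase gene LYN read 38.5, 31.2 and 38.2 CPM and 59.9, 59.99 and 54.96 CPM (log2 fold change 0.70 ± 0.10, edgeR adjusted p = 0.000724). These 4 genes had no overlap between groups. PIK3CD, a PI3-kinase catalytic subunit, and BANK1, a B cell scaffold, were called at 0.46 and 0.51, but PIK3CD lost its call without WT library 1 (0.47), WT library 2 (0.35), EV library 1 (0.50), EV library 2 (0.45) and EV library 3 (0.42), and BANK1 without WT library 1 (0.43), EV library 1 (0.53), EV library 2 (0.53) and EV library 3 (0.47).

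Other checkpoint genes and interferon-stimulated genes, which often rise with CD274 in inflamed tissue, were mostly not called. Of 16 measured checkpoint ligands 1 was higher and 1 lower (median -0.07). The lower member was TNFSF15, a TNF-family ligand, at 65.6, 70.3 and 71.3 CPM in EV and 51.6, 35.1 and 38.4 CPM in WT (log2 fold change -0.73 ± 0.14, edgeR adjusted p = 0.0103), a call lost without WT library 2 (-0.62), EV library 2 (-0.72) and EV library 3 (-0.71). Of 26 measured interferon-stimulated genes 0 were called by edgeR, 2 were higher and 0 lower at an unadjusted p under 0.05, and DESeq2 called 1 (median 0.03). Those with the smallest p were IFI44, at 0.96 ± 0.25 (edgeR adjusted p = 0.0858), and OAS3, an RNA sensor, at 0.49 ± 0.18 (edgeR adjusted p = 0.402). The T cell marker CD3E was at 0 in all 6 libraries, and the leukocyte marker PTPRC was under 0.1 CPM.

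Receptors with their G proteins gave 6 calls higher and 1 lower, and channels and transporters 9 higher. OR51E2, an olfactory-type G protein-coupled receptor known for its expression in prostate, was at 3.33, 2.11 and 3.13 CPM in EV and 9.48, 25.7 and 19.4 CPM in WT (log2 fold change 2.67 ± 0.43, edgeR adjusted p = 0.00185). ADRA2A, the alpha-2A adrenergic receptor, was at 83.8, 97.8 and 56.9 CPM and 269, 245 and 149.9 CPM (log2 fold change 1.48 ± 0.27, edgeR adjusted p = 0.00527), with its call lost without EV library 3 (1.28). Both showed wide spread within WT, and neither group reached into the other. GLP1R, the receptor of the incretin GLP-1, fell from 7.42, 9.34 and 12.9 CPM to 2.45, 1.76 and 5.303 CPM (log2 fold change -1.64 ± 0.36, edgeR adjusted p = 0.0255), a call lost without WT library 1 (-1.48), WT library 2 (-1.36), EV library 2 (-1.68) and EV library 3 (-1.403). The list of prostate and olfactory G protein-coupled receptors held these OR51E2 and GLP1R calls among 18 measured members (DESeq2 called 1 higher and 2 lower), and its median was 0.00. Of the channels and transporters, SLC30A4, a zinc exporter, belongs to a family that loads zinc into secretory vesicles, and rose from 344, 325 and 268 CPM to 523, 587 and 433 CPM (log2 fold change 0.72 ± 0.12, edgeR adjusted p = 0.00246). KCNK13, a tandem-pore potassium channel gene, rose from 0.969, 0.852 and 0.950 CPM to 2.08, 3.43 and 3.34 CPM (log2 fold change 1.67 ± 0.28, edgeR adjusted p = 0.00284). The magnesium transporter gene NIPAL3 rose by 0.70 ± 0.10 (edgeR adjusted p = 0.000925), and TMEM38B, a cation channel gene of the endoplasmic reticulum, by 0.57 ± 0.10 (edgeR adjusted p = 0.00466).

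Secreted ligands were called in both directions, 6 higher and 1 lower. TGFB3, a transforming growth factor beta, was at 0.379, 0.545 and 0.493 CPM in EV and 2.41, 2.43 and 1.89 CPM in WT (log2 fold change 2.23 ± 0.39, edgeR adjusted p = 0.00455). It was the only call among 24 measured genes of the TGF-beta and BMP pathway, whose median was 0.06, and its receptors and SMAD genes were not called. JAG1, a membrane-bound Notch ligand, rose from 54.9, 35.5 and 49.3 CPM to 89.2, 105 and 80.9 CPM (log2 fold change 0.98 ± 0.13, edgeR adjusted p = 0.000413). RLN1, a relaxin gene close to CD274 on chromosome 9, rose from 3.79, 2.21 and 2.32 CPM to 5.91, 7.698 and 6.52 CPM (log2 fold change 1.28 ± 0.22, edgeR adjusted p = 0.00345). RLN1 and its neighbour RLN2 are near-identical copies that share 15.6% and 12.8% of their 50-base stretches with other genes, so their split is uncertain. RLN2 was called at 1.24 and lost its call without WT library 1 (1.18), WT library 3 (1.15), EV library 2 (1.17) and EV library 3 (1.16).

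Genes for matrix, blood proteins and extracellular proteases divided into 5 higher and 5 lower. CORIN, a transmembrane serine protease that activates natriuretic peptide precursors, read 0.674, 0.239 and 0.915 CPM in EV and 3.04, 3.64 and 4.01 CPM in WT (log2 fold change 2.55 ± 0.41, edgeR adjusted p = 0.00185). COL5A2, a fibrillar collagen chain, read 6.28, 4.91 and 4.08 CPM and 18.6, 18.5 and 15.6 CPM (log2 fold change 1.79 ± 0.21, edgeR adjusted p = 3.73e-05). VWF, the von Willebrand clotting factor made by endothelium, read 5.01, 3.41 and 5.701 CPM and 10.9, 12.05 and 11.9 CPM (log2 fold change 1.31 ± 0.18, edgeR adjusted p = 0.000397). None of these 3 overlapped between groups. The endothelial gene CDH5 was at 0 in all 6 libraries, PECAM1 was under 0.1 CPM, and the fibroblast genes DCN and COL1A2 were at or under 0.04 CPM. C1R, a complement protease, rose by 1.28 ± 0.22 (edgeR adjusted p = 0.00322), with 11.4% of its exon bases overlapping a neighbour.

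SPON2, a secreted spondin abundant in prostate cancer, was the most highly expressed gene called. It read 2816, 3122 and 2924 CPM in EV and 2109, 1781 and 1926 CPM in WT (log2 fold change -0.61 ± 0.10, edgeR adjusted p = 0.00196), that is 486 ± 26.6 FPKM in EV and 318 ± 27.6 in WT. Every WT library was below every EV library. The 3 prostate kallikreins KLK3 (prostate-specific antigen), KLK2 and KLK4, neighbours on chromosome 19 and classic androgen receptor targets, were also lower. KLK3 read 866, 891 and 1315 CPM in EV and 399, 464 and 754 CPM in WT (log2 fold change -0.93 ± 0.21, edgeR adjusted p = 0.0323). KLK2 read 30.2, 42.1 and 37.3 CPM and 18.2, 16.2 and 23.1 CPM (log2 fold change -0.93 ± 0.19, edgeR adjusted p = 0.0141), and KLK4 read 67.7, 78.1 and 73.02 CPM and 50.6, 50.04 and 57.3 CPM (log2 fold change -0.47 ± 0.09, edgeR adjusted p = 0.0118). The highest WT library was below the lowest EV library in each, but the gap was small. KLK3 lost its call without WT library 1 (-0.75), WT library 2 (-0.83) and EV library 3 (-0.71), KLK2 without WT library 1 (-0.89), WT library 2 (-0.83), EV library 2 (-0.82) and EV library 3 (-0.92) and KLK4 without WT library 1 (-0.44), WT library 2 (-0.44), EV library 2 (-0.42) and EV library 3 (-0.47).

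Among the androgen-induced genes listed, edgeR called only these kallikreins. Of 6 measured kallikreins 3 were lower and all 6 had negative values (median -0.61). Of 31 androgen-induced genes these 3 were lower and 0 were higher, and the median was -0.02. KRT19, a keratin of that list, had a value of 1.05 ± 0.31 (edgeR adjusted p = 0.167), in the other direction. ACP3, which encodes prostatic acid phosphatase and belonged to the luminal marker list, rose from 85.1, 80.04 and 79.001 CPM to 123, 147 and 122 CPM (log2 fold change 0.69 ± 0.12, edgeR adjusted p = 0.00582), with its call lost without WT library 2 (0.59). Of 19 measured genes in the list of pioneer factors and coregulators of androgen signalling 0 were called by edgeR, 1 was higher and 1 lower at an unadjusted p under 0.05, and DESeq2 called 1. That gene was SPDEF, an ETS factor of luminal cells, at -0.40 ± 0.10 (edgeR adjusted p = 0.0794).

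Enzymes of small molecules and sugars made up 17 of the called genes, 11 higher and 6 lower. AOC1 encodes a diamine oxidase that degrades histamine and putrescine, and read 0.885, 1.02 and 1.196 CPM in EV and 12.5, 20.5 and 11.2 CPM in WT (log2 fold change 3.82 ± 0.33, edgeR adjusted p = 4.48e-07). MAOA, the mitochondrial monoamine oxidase, was far more abundant at 473, 418 and 442 CPM in EV and 616, 737 and 681 CPM in WT (log2 fold change 0.61 ± 0.09, edgeR adjusted p = 0.000724). Per length these are 0.268 ± 0.0405 FPKM in EV and 3.81 ± 1.32 in WT for AOC1, and 79.5 ± 4.79 FPKM in EV and 121 ± 10.9 in WT for MAOA. Both were higher in all 3 WT libraries. They were the 2 calls among 20 measured polyamine and amine oxidase genes (median 0.01), and the enzymes of polyamine synthesis were not called. MAN1A1, a Golgi mannosidase that trims N-glycans, read 37.4, 50.8 and 36.7 CPM in EV and 146, 101 and 83.6 CPM in WT (log2 fold change 1.403 ± 0.21, edgeR adjusted p = 0.000850). CA13, a cytosolic carbonic anhydrase, rose by 1.69 ± 0.23 (edgeR adjusted p = 0.000442), RDH10, which oxidises retinol toward retinoic acid, by 0.61 ± 0.10 (edgeR adjusted p = 0.00280), and BTD, which recycles biotin, by 0.59 ± 0.10 (edgeR adjusted p = 0.00272). The dermatan sulfate enzyme gene DSEL rose by 1.09 ± 0.16 (edgeR adjusted p = 0.000724), though 36.8% of its exon bases overlap other genes. Among the lower enzymes ADA2, a secreted adenosine deaminase, stood at -1.099, with its call lost without WT library 2 (-1.001) and EV library 3 (-0.88), and DIO3, which inactivates thyroid hormone, at -1.08, with its call lost without WT library 2 (-0.86), WT library 3 (-1.05), EV library 2 (-0.83) and EV library 3 (-1.09).

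Cytoskeletal and junction genes were 11 of the genes called higher, and 2 of the 11 kept their call without any 1 library. MYLK, the myosin light chain kinase that drives contraction, read 16.1, 15.6 and 16.3 CPM in EV and 37.1, 52.004 and 38.4 CPM in WT (log2 fold change 1.41 ± 0.16, edgeR adjusted p = 2.38e-05). PPP1R14C, an inhibitor of protein phosphatase 1, read 11.1, 10.1 and 12 CPM and 32.1, 30.3 and 34.3 CPM (log2 fold change 1.55 ± 0.16, edgeR adjusted p = 1.09e-05). The EV libraries of both genes lay close together, and the lowest WT library was far above them. The tight junction scaffold gene TJP1 and the epithelial membrane protein gene EMP1 were the 2 edgeR calls among 28 measured luminal and adhesion genes (median -0.06), where DESeq2 called 3. TJP1 was called at 0.54 and lost its call without WT library 2 (0.42), EV library 2 (0.58) and EV library 3 (0.45). EMP1 rose from 0.253, 0.784 and 0.528 CPM to 1.91, 3.14 and 2.55 CPM (log2 fold change 2.24 ± 0.44, edgeR adjusted p = 0.0103) and lost its call without WT library 2 (2.05), EV library 1 (1.94) and EV library 3 (2.23). Of 14 measured mesenchymal and migration genes 0 were called by edgeR or DESeq2, and 0 passed an unadjusted p of 0.05.

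CAMK2N1 showed the largest fall among the protein-coding genes called. It encodes a peptide inhibitor of calcium/calmodulin-dependent kinase II, and its level was 128, 136 and 162 CPM in EV and 33.5, 30.4 and 40.2 CPM in WT (log2 fold change -2.04 ± 0.28, edgeR adjusted p = 0.000445). The lowest EV library was more than 3 times the highest WT library. DAPK1, a calmodulin-regulated death-associated kinase, rose from 7.33, 9.61 and 8.62 CPM to 15.7, 19.6 and 17.2 CPM (log2 fold change 1.04 ± 0.19, edgeR adjusted p = 0.00558), with its call lost without WT library 2 (0.94). The other 13 measured genes of the calcium/calmodulin kinase list, including the kinase II subunits that CAMK2N1 inhibits, were not called, and the median was -0.03. In the R1881 libraries 0 of the 15 measured members were called higher and 0 lower in WT, so neither CAMK2N1 nor DAPK1 was called there. For neither gene was the difference between treatments called.

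Genes of RNA handling, translation and protein quality control held 10 higher and 2 lower calls, mostly of small size. FBXO7, a subunit of ubiquitin ligases, read 82.4, 69.2 and 77.1 CPM in EV and 130.1, 169.7 and 157 CPM in WT (log2 fold change 0.999 ± 0.11, edgeR adjusted p = 1.28e-05). RPAP2, a phosphatase of RNA polymerase II, read 40.6, 42.2 and 36.3 CPM and 65.4, 67.7 and 63.8 CPM (log2 fold change 0.73 ± 0.10, edgeR adjusted p = 0.000376). The groups were apart in both. Further higher genes with regulatory roles were MYB, a transcription factor of progenitor cells, from 3.58, 3.07 and 3.45 CPM to 8.69, 8.33 and 9.31 CPM (log2 fold change 1.38 ± 0.23, edgeR adjusted p = 0.00217), and RCAN3, an inhibitor of calcineurin, by 0.83 ± 0.10 (edgeR adjusted p = 7.37e-05). The calcineurin inhibitor gene has 15.2% of its exon bases in an overlap. COBLL1, an actin-associated protein, rose by 1.303 ± 0.11 (edgeR adjusted p = 5.44e-07), and COLCA1, a gene annotated as antisense RNA, by 0.94 ± 0.14 (edgeR adjusted p = 0.000724). Reads of an antisense gene and its partner cannot be told apart without strand where their exons overlap. For COLCA1 that is 4.99% of its exon bases, so its value is uncertain to that extent.

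Cell cycle genes had small positive values almost throughout, and no single one was called by edgeR in the main fit, the one used throughout. Of 20 mitotic genes 0 were called by edgeR and 1 by DESeq2, while all 20 had positive values and 15 were higher at an unadjusted p under 0.05. That threshold was passed upward by 4.94% and downward by 2.43% of all genes tested. The median log2 fold change was 0.47, against 0.01 for all genes. TOP2A, the topoisomerase of dividing cells, read 40.4, 28.998 and 39.7 CPM in EV and 54.7, 54.7 and 47.3 CPM in WT (log2 fold change 0.52 ± 0.14, edgeR adjusted p = 0.114), and cyclin A2 (CCNA2) read 14.999, 8.66 and 14.96 CPM and 19.9, 18.2 and 18.8 CPM (log2 fold change 0.56 ± 0.16, edgeR adjusted p = 0.153). In both genes every WT library was above every EV library, which held in 11 of the 20 and in 6.3% of all genes tested. EV library 2 weighed on the count at an unadjusted p under 0.05. Without it 5 mitotic genes were higher at that threshold and the median was 0.31, and without WT library 2 the count was 9.

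Genes of DNA replication and repair gave a similar picture. Of 24 G1/S and replication genes 0 were called by the main edgeR fit and 3 by DESeq2. At an unadjusted p under 0.05, 15 were higher and 0 lower, and the median was 0.32. Other edgeR settings called some of the 24 higher: 4 with the replicate block and 4 with no filter on low counts. The block in the fit over 6 libraries called 3, and leaving out EV library 1 gave 1. E2F1, the transcription factor that drives S phase genes, stood at 0.60 ± 0.15 (edgeR adjusted p = 0.0685), and the S phase cyclin gene CCNE2 at 0.83 ± 0.22 (edgeR adjusted p = 0.102). The CCNE2 value is uncertain, since 37.1% of its exon bases overlap other genes, among them INTS8, which was itself called higher (0.60, lost without WT library 1 (0.49) and EV library 3 (0.56)). Of 16 measured genes for homologous recombination and the Fanconi pathway 0 were called by edgeR and 2 by DESeq2, 8 were higher and 0 lower at an unadjusted p under 0.05, and the median was 0.39. FANCD2, a core Fanconi protein, stood at 0.46 ± 0.12 (edgeR adjusted p = 0.0955) and the exonuclease gene EXO1 at 0.58 ± 0.19 (edgeR adjusted p = 0.291). Without EV library 2 the counts at that threshold fell to 5 of 24 and 6 of 16. Without WT library 1 the replication count was 7, without WT library 2 it was 8, and without EV library 3 the repair count was 5.

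Most other pathways examined held few or no calls. Over all genes 0.647% were called higher and 0.122% lower, so few or no calls would be common in any list of this size. That holds for the other lists above and below as well. HOX genes and their TALE partners, the family of HOXB13 itself, had 0 of 17 measured members called by edgeR, 2 higher and 0 lower at an unadjusted p under 0.05, and a median of 0.01, and DESeq2 called 1. MEIS1, a TALE partner, had the smallest p at 0.74 ± 0.20 (edgeR adjusted p = 0.114). The mTOR pathway list had 0 of 29 called by edgeR or DESeq2, 1 higher and 2 lower at an unadjusted p under 0.05, and a median of -0.03. Sterol synthesis genes had 0 of 20 called by edgeR or DESeq2, 0 in either direction at an unadjusted p under 0.05, and values between -0.18 and 0.20. ATF4 targets (0 of 25) and unfolded protein response genes (0 of 19) were likewise not called by edgeR or DESeq2, with 0 and 1 lower and 0 higher at an unadjusted p under 0.05. Glycolysis genes (0 of 25), WNT pathway genes (0 of 19) and BCL2-family genes (0 of 23) gave no call by edgeR or DESeq2, with 0, 1 and 0 higher and 1, 2 and 0 lower at an unadjusted p under 0.05. In fatty acid metabolism ACSL4, which activates arachidonic acid, was the 1 call of 24 at 0.64, lost without WT library 1 (0.54), WT library 2 (0.64), EV library 1 (0.61) and EV library 3 (0.60). In the MAPK and EGFR list the EGF-family ligand HBEGF was the 1 call of 25 at 0.68, lost without WT library 3 (0.55), EV library 1 (0.62) and EV library 2 (0.62).

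The remaining lists touched metabolism, noncoding RNA and secretion. Among 26 measured glutathione and conjugation genes the glutathione transferase GSTA1 was the 1 edgeR call (DESeq2 called 1 higher and 1 lower), from 27.05, 21.4 and 19.5 CPM to 8.57, 11.5 and 15.04 CPM (log2 fold change -0.95 ± 0.21, edgeR adjusted p = 0.0265), lost without WT library 1 (-0.77), WT library 2 (-0.94), EV library 1 (-0.80) and EV library 2 (-0.99). It shares 26.2% of its 50-base stretches with its near-identical family members and is uncertain. Among 13 measured complement and coagulation genes 2 were higher and 1 lower (median 0.33), the lower one being TFPI, an inhibitor of tissue factor, at -0.61 ± 0.12 (edgeR adjusted p = 0.0101), lost without WT library 2 (-0.58) and EV library 2 (-0.50). Of 16 measured prostate long noncoding RNAs 0 were called by edgeR or DESeq2, with 1 higher and 1 lower at an unadjusted p under 0.05. PCGEM1, the first of these, stood at 2.09 ± 0.69 (edgeR adjusted p = 0.267). Cholesterol efflux and LXR genes had 0 of 11 called by edgeR or DESeq2, with 2 higher and 1 lower at an unadjusted p under 0.05. The 13 mitochondrially encoded mRNAs were likewise not called by edgeR or DESeq2, and 0 passed an unadjusted p of 0.05 (median -0.19).

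Other called genes that met the naming rule follow, some of them members of the groups by function above. STMN4, a stathmin of neurons, was called at 1.84 and lost its call without WT library 1 (1.57), WT library 3 (1.78), EV library 1 (1.54) and EV library 2 (1.86). PRR16, a gene linked to cell size, rose from 2.28, 1.704 and 1.62 CPM to 4.45, 7.91 and 4.52 CPM (log2 fold change 1.596 ± 0.24, edgeR adjusted p = 0.00125), and VSTM2L, a secreted immunoglobulin-domain gene, from 3.92, 4.94 and 3.34 CPM to 10.9, 12.8 and 12.6 CPM (log2 fold change 1.57 ± 0.22, edgeR adjusted p = 0.000442). KCNU1, a potassium channel gene of sperm, was called at 1.502 and lost its call without WT library 3 (1.302), EV library 1 (1.48) and EV library 3 (1.38). Among lower genes GALNT7 and HS3ST1, which add sugars or sulfate to glycans, were called at -0.57 and -0.52. GALNT7 lost its call without WT library 1 (-0.61), WT library 2 (-0.58), WT library 3 (-0.52), EV library 1 (-0.48) and EV library 2 (-0.54), and HS3ST1 without WT library 1 (-0.46), WT library 2 (-0.57), EV library 1 (-0.47), EV library 2 (-0.55) and EV library 3 (-0.56). PDIA5, a disulfide isomerase, stood at -0.49 and lost its call without WT library 1 (-0.47), WT library 2 (-0.48) and EV library 1 (-0.46), with 14.3% of its exon bases in an overlap. GLYATL1, an acyltransferase gene, stood at -0.47 and lost its call without WT library 2 (-0.39) and EV library 3 (-0.37). IER5L stood at -0.54, with 39.2% of its exon bases in an overlap, and lost its call without WT library 1 (-0.57), WT library 2 (-0.53), WT library 3 (-0.52), EV library 1 (-0.55), EV library 2 (-0.55) and EV library 3 (-0.52).

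The same contrast in the androgen-treated cells gave a reading in 6 other libraries. There 799 genes were higher in WT (4.66%) and 694 lower (4.04%). Of the 111 genes higher in vehicle, 62 were also called higher with R1881 (55.9%), 1 was lower, and 100 had a positive value, with a median of 0.72. Of the 21 genes lower in vehicle, 13 were also lower (61.9%), 0 were higher, and 20 had a negative value, with a median of -0.65. Among the 50 higher genes that kept their call without any 1 vehicle library, 33 were called higher with R1881, and among the other 61 it was 29. For the lower genes it went the other way, with 1 of the 3 that kept their call and 12 of the other 18 called lower with R1881. The WT and EV cells behind both readings are the same lines.

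CD274 and AOC1 had similar values in both treatments. With R1881 CD274 read 1.44, 1.21 and 1.398 CPM in EV and 7.86, 10.2 and 10.2 CPM in WT (log2 fold change 2.800, edgeR adjusted p = 1.35e-07). AOC1 changed by 3.52 with R1881 (edgeR adjusted p = 9.69e-06). OR51E2 and GRIK1 had larger values with R1881 than in vehicle, 3.62 (edgeR adjusted p = 0.000187) and 3.32 (edgeR adjusted p = 5.07e-05), but the difference between treatments was not called for either (edgeR adjusted p = 0.655 and edgeR adjusted p = 0.472). For CBLN2 it was: the change was 3.500 with R1881 (edgeR adjusted p = 6.32e-12), larger by 1.56 on the log2 scale (edgeR adjusted p = 0.000563). BVES behaved in the opposite way. With R1881 it read 1.89, 2.88 and 2.28 CPM in EV and 11.996, 11.4 and 14.5 CPM in WT, so WT was still higher (2.42, edgeR adjusted p = 1.56e-05), but by less than in vehicle (difference -2.85, edgeR adjusted p = 0.00144). PREP was likewise higher by only 0.38 with R1881 (edgeR adjusted p = 0.0289), a difference of -1.28 (edgeR adjusted p = 0.000234). POPDC3 was not called with R1881 (0.87, edgeR adjusted p = 0.301), and neither was CAMK2N1, the lower gene with the largest fall among protein-coding genes. For neither gene was the difference between treatments called (POPDC3 -1.49, edgeR adjusted p = 0.479). The gene called in opposite directions was ZYX, a focal adhesion protein, at 0.45 in vehicle and -0.31 with R1881 (edgeR adjusted p = 0.0274), and its vehicle call was lost without WT library 2 (0.44) and EV library 1 (0.41). Differences between the treatments were called for 34 of all genes (0.198%), and they use the vehicle libraries in which the genes here were called.

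**Figure D2:**
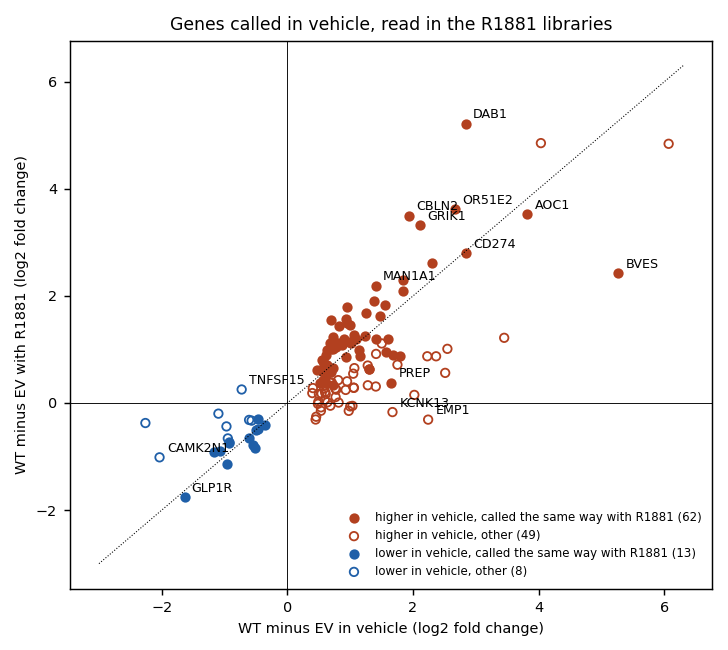
The 132 genes called in vehicle are placed by their WT minus EV log2 fold change in vehicle (across) and with R1881 (upward), filled where they were called the same way with R1881 (62 red, 13 blue). Most points lie at the upper right and lower left, BVES lies far below the dotted line of equal values and CBLN2 above it.

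In the main edgeR fit the cell cycle lists held calls with R1881 and none in vehicle, where DESeq2 called 1, 3 and 2. Other edgeR settings called some replication genes in vehicle, as given above. With R1881 13 of 20 mitotic genes were called higher (median 0.75), as were 20 of 24 replication genes (median 0.64) and 13 of 16 repair genes (median 0.85), with 0 called lower in these 3 lists. Of the 31 androgen-induced genes 14 were lower and 1 higher with R1881, where the receptor has its ligand, against 3 and 0 in vehicle. Calls were more common with R1881 in general: 4.66% of all genes were higher and 4.04% lower, against 0.647% and 0.122% in vehicle. The list counts of the 2 treatments are therefore not directly comparable, and the difference between treatments was not tested for these lists.

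Cells with the 3A form of HOXB13 were read in vehicle beside WT. These comparisons share the EV or WT libraries in which the genes were called, so each value stands on its own and none supports another. Of all genes, 3.97% were higher and 3.27% lower in 3A than in EV, and 2.64% and 2.99% than in WT. BVES read 17.3, 22.3 and 16.3 CPM in the 3A vehicle libraries, between the EV and WT levels (3A minus EV 2.98, edgeR adjusted p = 8.27e-07, and 3A minus WT -2.29, edgeR adjusted p = 5.63e-06). CD274 read 3.68, 4.83 and 3.88 CPM in 3A (3A minus EV 1.51, edgeR adjusted p = 7.75e-05, and 3A minus WT -1.33, edgeR adjusted p = 0.000254), and AOC1 read 3.52, 7.22 and 3.17 CPM (3A minus EV 2.15, edgeR adjusted p = 0.000117, and 3A minus WT -1.67, edgeR adjusted p = 0.000881). In these 3 genes every 3A library lay between the EV and the WT libraries. OR51E2 was at 1.92, 5.69 and 5.305 CPM in 3A, with 3A minus EV at 0.58 (edgeR adjusted p = 0.471) and 3A minus WT at -2.09 (edgeR adjusted p = 0.00331). TGFB3 was at 0.440, 0.599 and 0.554 CPM in 3A, with 3A minus EV at 0.15 (edgeR adjusted p = 0.873). COL5A2, by contrast, was at 14.8, 15.9 and 15.7 CPM in 3A, with 3A minus WT at -0.18 (edgeR adjusted p = 0.655), and VWF differed from WT by -0.01 (edgeR adjusted p = 0.977). CAMK2N1 was at 87.8, 106 and 114 CPM in 3A (3A minus EV -0.47, edgeR adjusted p = 0.335, and 3A minus WT 1.56, edgeR adjusted p = 0.00144). HOXB13 RNA itself was higher in 3A than in WT by 0.50 (edgeR adjusted p = 0.00807).

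The response of the called genes to androgen was read in the 3A cells only, whose 6 libraries enter neither WT nor EV. This reading need not hold in EV or WT cells. BVES was lowered by R1881 in 3A (-2.96, edgeR adjusted p = 1.99e-08). Its mean in vehicle and with R1881 was 2.39 and 2.35 CPM in EV, and 91.05 and 12.6 CPM in WT. In 3A R1881 raised 12.4% and lowered 12.1% of all genes. Of the 111 genes higher in WT, 60 were lowered by R1881 in 3A (54.1%) and 13 raised (11.7%), with a median of -0.62 against -0.01 for all genes. Of the 21 genes lower in WT, 8 were raised and 9 lowered. MAN1A1 fell by 3.82 with R1881 in 3A (edgeR adjusted p = 9.25e-11), COL5A2 by 3.21 (edgeR adjusted p = 5.14e-10) and VAV3 by 3.23 (edgeR adjusted p = 3.19e-07). CD274 (-0.40, edgeR adjusted p = 0.180) and KCNK13 (0.09, edgeR adjusted p = 0.870) were not called. PIK3AP1 (1.52, edgeR adjusted p = 5.41e-07), TBRG1, a growth regulator gene (1.46, edgeR adjusted p = 9.00e-11), and MAOA (0.70, edgeR adjusted p = 2.90e-06) were raised. TBRG1 has 34.5% of its exon bases in an overlap with SIAE. By function, 8 of the 11 neuronal genes and 9 of the 17 enzymes were lowered in 3A by R1881, against 0 and 4 raised. Lowered genes were also 8 of the 12 in RNA, translation and protein quality control (1 raised). They were 5 of the 9 channels and transporters (1 raised) and 5 of the 10 matrix and protease genes (4 raised). The enzyme, channel and matrix shares lay near the 54.1% of all higher genes. Of these groups all but the channels also hold lower genes, and of the 21 lower genes 42.9% were lowered. In the remaining groups 3 of 7 receptors and G proteins, 3 of 6 immune genes and 4 of 7 secreted ligands were lowered (1 raised in each). So were 5 of 11 cytoskeletal genes (2 raised) and 1 of 3 Popeye genes (0 raised). Differences between groups were not tested.

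Position in the genome gave several pairs. Of the 132 called genes, 27 had another called gene within 250 kb, and in each such case the genes moved the same way. Since 111 of the 132 calls were higher, a shared direction would be common in any such pairs. The pairs included NIPAL3 with RCAN3 and GLMN with RPAP2 on chromosome 1, MYLK with KALRN on chromosome 3, CORIN with NFXL1 and NIPAL1 on chromosome 4, and RLN1, RLN2 and CD274 on chromosome 9. The NIPAL1 call (0.63) was lost without WT library 1 (0.55), WT library 2 (0.60), EV library 1 (0.63), EV library 2 (0.67) and EV library 3 (0.60), and in the fit over 6 libraries. NFXL1 and NIPAL1 overlap each other and are uncertain, with 12.9% and 5.97% of their exon bases in an overlap. GLMN, a regulator of cullin ligases, lies head to head with RPAP2 and rose by 0.95 ± 0.15 (edgeR adjusted p = 0.00185). Between RLN1 (chr9:5334969-5339873) and CD274 (chr9:5450503-5470566), which lie on opposite strands, both changes were upward (1.28 and 2.84). The share expected for other sets of genes was not computed, so the number is a description.

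Promoter letters were read for genes that the RefSeq table of GRCh38.p14 holds, 87 of the 111 higher genes, 16 of the 21 lower genes and 11691 of all genes tested. BVES and PREP were not matched. The windows ran from 250 bases before to 50 bases after the start, and both strands were searched. ATAAA, the core of sites bound by posterior HOX proteins, was in 24 of the 87 higher promoters (27.6%), 8 of the 16 lower promoters and 21.4% of all tested promoters, and in 34.9% of all 35116 promoters of the table. CAATAAA, which contains ATAAA, was in 5.75%, 6.25% and 2.21%, and in 4.0% of the table. TCGTAAA was in 1.15% of higher and 0.599% of all tested promoters (0.541% of the table), and CCATAAA, which also contains ATAAA, in 1.15% and 1.43% (2.54% of the table), and the lower genes had neither. AGAACA, an element of androgen receptor sites, was in 12.6% of higher, 12.5% of lower and 8.99% of all tested promoters, and in 14.8% of the table. A match is no binding site, and these 5 shares are descriptions over few promoters.

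The 250 bases before the start are shown for 4 called genes, POPDC3 of the BVES locus (chr6:105176256-105176505, minus strand), CD274 (chr9:5450292-5450541, plus strand), MYLK (chr3:123620549-123620798, minus strand), the higher gene with a TCGTAAA match, and TOB1, an antiproliferative gene lower in WT (chr17:50867979-50868228, minus strand). They come from RefSeq, are written 5′ to 3′ on the gene's strand, and have matches on either strand to the HOX-type motifs above, that is all but AGAACA, in capitals. The POPDC3 and MYLK starts lie inside these genes as annotated in the count table, so their windows are not upstream of the annotated start.
POPDC3: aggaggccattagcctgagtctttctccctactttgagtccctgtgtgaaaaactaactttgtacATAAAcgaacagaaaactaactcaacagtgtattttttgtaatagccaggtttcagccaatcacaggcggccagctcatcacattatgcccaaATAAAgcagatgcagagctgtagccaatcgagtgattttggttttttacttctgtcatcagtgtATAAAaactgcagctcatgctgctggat
CD274: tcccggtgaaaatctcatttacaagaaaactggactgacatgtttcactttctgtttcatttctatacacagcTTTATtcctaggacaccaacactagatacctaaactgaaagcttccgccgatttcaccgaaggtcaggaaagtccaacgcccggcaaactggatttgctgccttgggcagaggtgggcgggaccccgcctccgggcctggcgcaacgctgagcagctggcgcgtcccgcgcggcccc
MYLK: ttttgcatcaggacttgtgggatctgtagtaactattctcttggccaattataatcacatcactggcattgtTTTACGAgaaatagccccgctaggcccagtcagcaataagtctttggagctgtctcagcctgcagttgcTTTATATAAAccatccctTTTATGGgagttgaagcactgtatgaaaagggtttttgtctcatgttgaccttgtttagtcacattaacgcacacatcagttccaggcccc
TOB1: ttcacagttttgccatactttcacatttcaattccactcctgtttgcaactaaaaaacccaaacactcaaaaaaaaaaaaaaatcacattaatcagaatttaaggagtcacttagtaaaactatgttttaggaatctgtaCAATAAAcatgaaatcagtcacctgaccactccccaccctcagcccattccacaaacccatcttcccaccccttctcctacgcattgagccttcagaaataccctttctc
POPDC3 has 3 ATAAA matches on its own strand, CD274 has 1 on the opposite strand, MYLK has matches to ATAAA and TCGTAAA as well as CCATAAA, and TOB1 has 1 CAATAAA.

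Beside BVES, POPDC3 and CD274, whose values are given above, MYLK rose by 1.41 and TOB1 stood at -0.36 (edgeR adjusted p = 0.0308), a call lost without WT library 1 (-0.38), WT library 2 (-0.34), EV library 1 (-0.33), EV library 2 (-0.36) and EV library 3 (-0.39). TOB1 also has 11.2% of its exon bases in an overlap with an antisense gene. Among the 21 lower genes the other with a kept call was AL138974.1, a long intergenic noncoding RNA gene, with 80 counts over the EV and 15 over the WT libraries (log2 fold change -2.26 ± 0.41, edgeR adjusted p = 0.00558).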

How the data were processed

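RNA from 18 LNCaP samples was sequenced in paired ends, and the samples were grouped by title into 6 groups of 3. The authors deposited raw read counts per gene and FPKM values (fragments scaled by gene length and library size). Reads were aligned with HISAT2 2.0.5 and counted with featureCounts 1.5.0-p3 on hg38, per the submitters' processing notes. For the gene models, the strandedness of counting and reads with several matches, the setting is not given in the sources used. All 58735 gene IDs had the coordinates of GENCODE release 29. Counts were tested with edgeR 4.0.16 in R 4.3.3: filterByExpr (minimum count 10, minimum total 15), TMM scaling, a quasi-likelihood fit over all 18 libraries with 1 term per group, and Benjamini-Hochberg adjustment over the 17162 genes kept, with a threshold of 0.05. The fit was tested on simulated data. CPM values use TMM-scaled library sizes, errors after ± are SD for FPKM levels and SE for log2 fold changes, and deposited FPKM served only to compare levels between genes.

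Alternatives were RLE scaling, DESeq2 1.42.0, other filters, a fit over 6 libraries, a replicate term, and each library left out. Named genes were HOXB13, the 20 largest rises and up to 20 largest falls among called protein-coding genes that averaged 1 CPM or more without overlap of the groups, tested genes within 1 Mb of BVES, and up to 4 members per list by adjusted p. Others were grouped by function after their values were seen. The comparison, the 40 gene lists and the tests were chosen with earlier results of these data known. Some genes that meet the rule are not reported here.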

Additional observations from a re-analysis of the deposited data

Results flagged for a closer look

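Among the genes called in vehicle or named by the rule, the WT minus EV change of 12 differed between R1881 and vehicle by edgeR's interaction term, out of 34 such genes among all tested. The vehicle libraries behind these differences are those in which many of the genes were called.

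In 9 of the 12 genes the change was lower with R1881. The difference, R1881 minus vehicle on the log2 scale, was -2.85 for BVES (edgeR adjusted p = 0.00144), -1.28 for PREP (0.000234), -1.06 for FBXO7 (0.00192), -1.45 for MEIS1 (0.0233), -0.81 for TBRG1 (0.00640), -0.76 for ZYX (0.00558), -0.71 for PIK3CD (0.0456) and -0.68 for MARCKS, an actin-binding membrane protein (0.0411). SPDEF, also lower with R1881 and not called in vehicle, differed by -0.75 (edgeR adjusted p = 0.0295). In 3 genes the change was higher with R1881, by 1.56 for CBLN2 (edgeR adjusted p = 0.000563), 1.04 for the glucose transporter gene SLC2A12 (0.0145) and 0.85 for NIPAL3 (0.0135). In vehicle SLC2A12 stood at -0.37 ± 0.13 (edgeR adjusted p = 0.378) and MEIS1 at 0.74 ± 0.20 (edgeR adjusted p = 0.114), so neither was called there. SLC2A12 is uncertain, with 38.9% of its exon bases in an overlap. MARCKS was called in vehicle at 0.53, a call lost without WT library 2 (0.43) and EV library 3 (0.49) and in the fit over 6 libraries.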

How the results depend on the processing

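These 3 counts were recomputed: genes higher in WT (111), genes lower (21), and genes called the same way with R1881 (75). DESeq2 gave 199, 37 and 125, no filter on low counts gave 260, 65 and 173, and a fit over only the 6 libraries of the contrast gave 59, 5 and 40. Leaving out 1 library gave 61 to 161 higher genes, 3 to 26 lower genes and 39 to 114 with R1881. The lowest came without WT library 2 or EV library 3 and the highest without WT library 3. RLE scaling and a minimum of 1 CPM in 3 libraries left all 3 counts within 1.5-fold. No value reversed. Of the 132 calls, DESeq2 kept 131, RLE scaling 130, no filter 128 and the fit over 6 libraries 61. The causes were not tested.

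Replicate numbers are shared between groups, but same-numbered vehicle libraries deviated together in only 1 of 3 pairs (correlations 0.05, 0.02 and 0.28), and EV library 2 correlated best with WT library 1 (0.19), so they were not taken as pairs. With R1881 each library correlated best with its own number (0.10, 0.12 and 0.16), a hint from the data and not from the design. With the replicate block 227 genes were higher, 43 lower and 166 called the same way with R1881, and all 132 calls were kept. The block in the fit over 6 libraries gave 175, 44 and 146.

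Depth limits the low genes: MEGF10 had 8 counts over the EV and 122 over the WT libraries, SHISA3 9 and 92, and DAB1 13 and 85.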
